A study of Mus musculus and Homo sapiens with 9 samples.

Results

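The genes described here are 40 factors that make ribosomes in the nucleolus, including the RNA polymerase I machinery. They were chosen by symbol, as a hand-picked list whose rule uses no measured value, although the list was drawn up with earlier results of these data known. All 40 were found among the 64252 rows of the human count table and, by the same symbols in mouse case, among the 43432 rows of the mouse table. All 40 also passed the filter on low counts in both tables, where 15819 human and 15350 mouse genes were tested. The lowest count of any of them in any library was 460 in the human table and 487 in the mouse table.

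The human libraries came from J.gamma1 cells, a T-cell acute lymphoblastic leukemia line derived from Jurkat cells that lacks PLCG1. They carried a lentiviral short hairpin against IRF2BP2 (shIRF2BP2, n = 2) or a control hairpin (shNC, n = 2) and were selected with puromycin. Which hairpin against IRF2BP2 was sequenced is not stated in the sources used here. The mouse libraries came from T cells of the spleen of mice at 6 weeks of age, sorted with magnetic beads for CD3. The knockout mice carried Vav-iCre and 2 floxed Irf2bp2 alleles (Vav-iCre+/-;Irf2bp2 fl/fl, n = 2), so that Irf2bp2 was deleted in the whole hematopoietic lineage and not in T cells alone. The controls (n = 3) are called wild type in the labels, whereas the study's text describes them as Irf2bp2 fl/fl mice without Cre. The comparisons ask how leukemic T cells respond to less IRF2BP2 and how normal T cells respond to its loss. Nothing in the labels says that replicates came from separate cultures or animals, so the p-values measure the spread between these libraries, which may be technical.

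A ribosome begins as a long precursor RNA that RNA polymerase I transcribes from the ribosomal DNA repeats. Small nucleolar RNAs (snoRNAs) then guide proteins to the bases to be modified, the small-subunit processome cuts and folds the 18S part, and separate sets of factors mature the 40S and the 60S particles. These genes are known for high expression in growing cells, and many of them are textbook targets of MYC, which binds the E-box CACGTG. The 40 genes were grouped by role as follows. FBL, NOP56 and NOP58 are core proteins of box C/D snoRNPs, the particles that methylate RNA. DKC1, NHP2, NOP10 and GAR1 form box H/ACA snoRNPs, which make pseudouridine. NCL, NPM1, NOLC1, MYBBP1A and DDX21 are abundant or multifunctional nucleolar proteins. NOP14, UTP4, UTP15, UTP20, WDR43, WDR75, RRP9 and DDX10 act in the small-subunit processome. RRP12, BYSL, TSR1, LTV1 and NOB1 act in maturation of the pre-40S particle, NOB1 being the nuclease that makes the final cut of 18S rRNA. NOP2, NOP16, WDR12, BOP1, PES1, RRP1B, RRS1, GNL3 and DDX18 act in 60S assembly, where BOP1, PES1 and WDR12 form the PeBoW complex. POLR1A, POLR1B and POLR1C are subunits of RNA polymerase I, and RRN3, UBTF and TCOF1 are factors that recruit or assist it.

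Sequence was read at the starts of all 40 human genes, from the hg38 genome with GENCODE 44 starts, as windows of 250 bases before and 50 after the start. The promoters of FBL and NOP56 are shown because both genes were lower in shIRF2BP2 cells at an adjusted p under 0.05, as described below. The capitals mark CACGTG (the E-box) and CCGGAA (the core bound by ETS factors). The FBL window lies at chr19:39846330-39846629 on the minus strand. It holds CCGGAA from position -193 and CACGTG from position 7, counted from the start of transcription as 1. The NOP56 window lies at chr20:2652382-2652681 on the plus strand and holds CCGGAA from position -176 and no CACGTG. A match of letters is a description and does not show that a factor binds there.
FBL: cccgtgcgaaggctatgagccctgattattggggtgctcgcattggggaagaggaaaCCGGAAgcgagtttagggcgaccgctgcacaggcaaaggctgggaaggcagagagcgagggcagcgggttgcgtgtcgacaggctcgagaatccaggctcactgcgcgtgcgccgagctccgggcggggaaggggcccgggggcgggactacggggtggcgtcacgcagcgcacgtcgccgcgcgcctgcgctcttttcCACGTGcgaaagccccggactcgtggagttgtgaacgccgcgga
NOP56: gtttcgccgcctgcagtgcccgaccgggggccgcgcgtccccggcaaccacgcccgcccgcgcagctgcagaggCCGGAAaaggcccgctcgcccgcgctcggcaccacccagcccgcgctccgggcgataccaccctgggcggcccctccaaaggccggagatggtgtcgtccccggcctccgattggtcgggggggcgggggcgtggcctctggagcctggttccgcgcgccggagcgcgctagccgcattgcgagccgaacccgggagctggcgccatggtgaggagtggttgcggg

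The E-box was common at the starts of these genes. CACGTG, which is its own reverse complement, was in the windows of 18 of the 40 human genes (45.0%), against 8.75% of 20046 windows of protein-coding genes. CCGGAA or its reverse complement TTCCGG was in 20 of the 40 (50%), against 22.7%. TGTGGT or its reverse complement ACCACA, the core bound by RUNX factors, was in 4 of the 40 (10%), against 10.7%. The words were counted separately, and in LTV1 an E-box and TGTGGT share 2 bases. In mouse, RefSeq windows of the same size on GRCm38.p6 were at hand for 34 of the genes, 42 windows in all. CACGTG was in 21.4% of these windows, against 7.15% of 32851 windows in the table. CCGGAA was in 33.3%, against 14.9%, and TGTGGT was in 7.14%, against 16.8%. The E-boxes lay close to the start of transcription in most of the human genes that had one. Stretches of 22 bases around 7 of them are shown, with the E-box in capitals. The E-box was not particular to genes whose levels stood apart between the J.gamma1 groups. NOP56, NHP2, NCL, NPM1, NOLC1, WDR75, NOP16 and BOP1 did not overlap and hold no CACGTG. BYSL, DDX18, MYBBP1A, NOP14, NOP2, RRP12, RRP1B, RRS1, UTP20, UTP4 and WDR43 hold CACGTG and overlapped. GAR1, GNL3, LTV1, NOP10, PES1 and RRP9 are shown because their levels did not overlap between the J.gamma1 groups, as those of FBL did not. UTP20 is shown because it had the highest fold change of the 40. They lie, in hg38, at chr4:109815785-109815806 (GAR1, plus strand), chr3:52686030-52686051 (GNL3, plus), chr6:143843358-143843379 (LTV1, plus), chr15:34343134-34343155 (NOP10, minus), chr22:30591884-30591905 (PES1, minus), chr3:51941896-51941917 (RRP9, minus) and chr12:101280087-101280108 (UTP20, plus).
GAR1: cagaggggCACGTGgcgccggt
GNL3: tcagttcaCACGTGgcgccagc
LTV1: tggggctgCACGTGtggtgagg
NOP10: ttgacgaaCACGTGacgcggtc
PES1: tggcagggCACGTGcgggagga
RRP9: tcagctgcCACGTGagttctgc
UTP20: tttccgtcCACGTGacccactc

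The labels were checked on the targeted gene first. IRF2BP2 was at 204 and 199 CPM (read counts relative to the library size after TMM scaling) in the shNC libraries and at 79.0 and 93.8 CPM in the shIRF2BP2 libraries. The log2 fold change was -1.22 ± 0.131 (SE), with an adjusted p of 0.0023 by edgeR's quasi-likelihood test. Irf2bp2 was at 112, 127 and 120 CPM in the wild type libraries and at a count of 0 in both knockout libraries. Total counts lay between 26648204 and 31120236 in the human libraries. In the mouse they lay between 35032688 and 37177523 in 4 libraries and at 16668577 in wild type replicate 3. With 2 libraries a group, or 3 against 2, 2 and 3 residual degrees of freedom were left. All 9 T cell markers were detected in J.gamma1 cells and all 11 in the mouse libraries.

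In the control libraries, the levels of the 40 genes spanned a wide range once divided by transcript length. NPM1, a histone and ribosomal protein chaperone, was the most abundant in both species, at 671 ± 58.2 CPM per kb in shNC cells (SD, n = 2) and 459 ± 28.2 CPM per kb in wild type mouse T cells (SD, n = 3). NCL, which binds the precursor rRNA, followed in J.gamma1 cells at 339 ± 48.3 CPM per kb, and FBL, the methyltransferase itself, at 218 ± 15.6. In mouse T cells Fbl stood at 122 ± 1.85 and Nop56 at 112 ± 2.93 CPM per kb. Thus the box C/D proteins were among the highest in both species.

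At the low end in J.gamma1 cells were UTP15 at 6.78 ± 2.15, POLR1B at 8.13 ± 3.19 and WDR12 at 10.1 ± 1.20 CPM per kb. POLR1A at 10.7 ± 3.08, RRS1 at 10.9 ± 3.19 and UTP20 at 11.6 ± 4.66 lay close by. Those SDs overlap, so neither the order of the lowest 3 nor which genes they are is settled. In the mouse, Wdr12 at 5.02 ± 0.632, Polr1a at 8.84 ± 1.73 and Utp20 at 9.62 ± 3.24 CPM per kb were lowest. The last 2 of them were not distinct from each other. Nor were they distinct from Rrp12 at 10.2 ± 2.71, Bysl at 10.4 ± 1.07 and Rrp1b at 10.4 ± 1.86. Across the 40 genes the log2 levels per kb of the 2 species correlated with a Pearson's r of 0.81 and a Spearman's rho of 0.73. This is a description across genes, whose lengths come from 2 annotations. The Ncl transcript chosen there, for example, has 8202 bases in mouse and that of NCL 3924 in human.

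**Figure D1:**
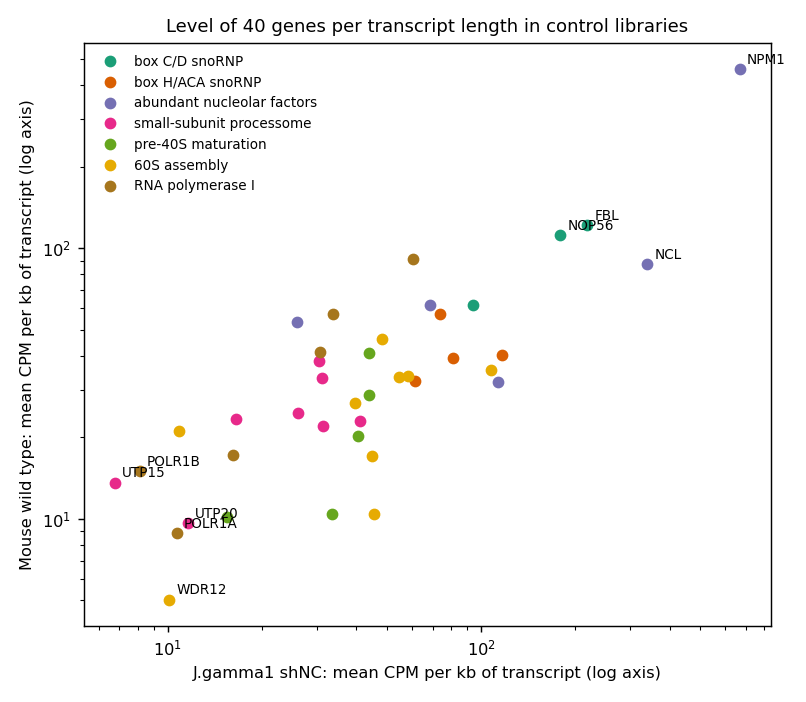
Mean level per kb of transcript of the 40 genes in J.gamma1 shNC cells (x axis) and wild type mouse T cells (y axis), both on log axes, coloured by role. NPM1 is highest in both at 671 and 459 CPM per kb, and the lowest means are those of UTP15 in J.gamma1 cells and WDR12 in mouse T cells.

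In J.gamma1 cells most of the 40 genes were a little lower with shIRF2BP2, but few passed the test and the replicates differed about as much as the groups. The median log2 fold change was -0.22, against 0.01 over all genes tested, and 32 of the 40 values were below 0, against 49.4% of all genes. BOP1 and NOP56 were called lower, that is, with an adjusted p under 0.05 together with a fold change of 0.5 or more in size on the log2 scale, which 5.01% of all genes met. FBL also had an adjusted p under 0.05 but a change just under that size, so that 3 of 40 were lower at the adjusted p alone, against 5.32% of all genes. No gene of the 40 was called higher by edgeR (5.46% of all genes were). At the adjusted p alone 0 were higher (5.83%), and at an unadjusted p under 0.05 also 0 (14.3%). DESeq2 called 0 higher too (3.68% of the genes in its fit). At an unadjusted p under 0.05, 12 of the 40 were lower, against 13.4% of all genes. In the lower direction, the share was thus near that of all genes at the adjusted p and above it at the unadjusted p. DESeq2 called 4 lower, BOP1, NOP56, NOLC1 and LTV1, against 3.38% of the 27082 genes in its fit.

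The libraries stood apart within each group. All 40 genes were lower in shIRF2BP2 replicate 2 than in shIRF2BP2 replicate 1, with a median difference of -0.32 on the log2 scale. Likewise, 39 of 40 were lower in shNC replicate 2 than in shNC replicate 1, with a median of -0.26. The summed level of the 40 genes was 8005 and 6437 CPM in the shNC libraries and 6795 and 5477 CPM in the shIRF2BP2 libraries, so the groups overlapped. Set against shNC replicate 1, shIRF2BP2 replicate 2 was lower in 40 of 40 genes (median -0.53) and shIRF2BP2 replicate 1 in 33 (median -0.20). Set against shNC replicate 2, shIRF2BP2 replicate 2 was lower in 31 genes (median -0.22), while shIRF2BP2 replicate 1 was lower in 15 and higher in 25 (median 0.07). Thus shIRF2BP2 replicate 2 lay below both controls in most genes, and shIRF2BP2 replicate 1 below 1 of them. The median over all genes in each of these pairs lay between -0.0082 and 0.022.

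Which library was left out moved the result, and the share of all genes called moved as well. Without shNC replicate 2 the median was -0.34 and 9 of the 40 genes were called lower, against 5.14% of all genes in the same setting. Without shIRF2BP2 replicate 1 the median was -0.38 and 2 were called lower, against 2.52%. Without shNC replicate 1 the median was -0.08 and 2 genes were called lower, against 6.87%. In that setting 3 genes, UTP20, DDX21 and POLR1A, were called higher, against 9.67% of all genes. Without shIRF2BP2 replicate 2 the median was -0.05 and 0 genes were called by edgeR, against 3.13% of all genes lower and 3.14% higher. Levels did not overlap between the groups, all lower with shIRF2BP2, for 15 of the 40 genes, against 28.7% of all genes, and for 0 of 40 in the other direction, against 29.6%.

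**Figure D2:**
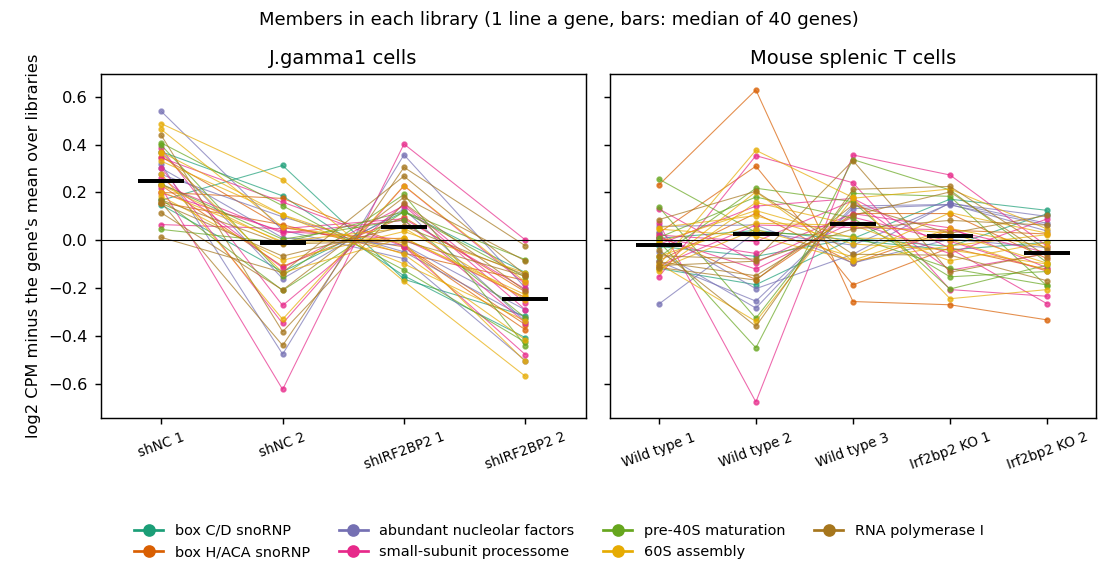
Each line is 1 of the 40 genes, drawn as its log2 CPM in each library minus its mean over the libraries of that species (y axis), coloured by role, with black bars at the median of the 40. In J.gamma1 cells the second library of each group lies below the first, and in mouse T cells the medians of all 5 libraries stay near 0.

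The box C/D snoRNP proteins had the lowest median of the 7 roles, at -0.48. FBL was at 233 and 258 CPM in the shNC libraries and at 186 and 167 CPM in the shIRF2BP2 libraries. The groups did not overlap, and the log2 fold change was -0.48 ± 0.127 (SE), with an adjusted p of 0.049 by edgeR's quasi-likelihood test. NOP56, the scaffold protein that pairs with NOP58 in these particles, was at 364 and 320 CPM with shNC and at 254 and 212 CPM with shIRF2BP2. Here too the groups stood apart, with a log2 fold change of -0.55 ± 0.142 and an adjusted p of 0.045. NOP58 itself was at 206 and 170 CPM against 202 and 169 CPM, so that the groups coincided, and its log2 fold change was -0.02 with a 95% interval from -0.36 to 0.33. These results for FBL and NOP56 were not firm. Without shIRF2BP2 replicate 2, the adjusted p was 0.307 for FBL and 0.288 for NOP56, and without shIRF2BP2 replicate 1 it was 0.141 and 0.0758. Without shNC replicate 2 that of FBL was 0.055.

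The 4 box H/ACA genes all had values below 0, with a median of -0.29, and none had an adjusted p under 0.05. GAR1, one of the proteins around the pseudouridine synthase, was lowest at a log2 fold change of -0.40. Its levels were 68.7 and 56.0 CPM with shNC and 52.9 and 41.6 CPM with shIRF2BP2, which did not overlap (adjusted p = 0.157). With libraries left out, that p ranged from 0.0291 without shNC replicate 2 to 0.581, at a log2 fold change of -0.24, without shIRF2BP2 replicate 2, and without shNC replicate 1 the log2 fold change was -0.25. The synthase DKC1 had the highest value of the 4 at -0.12, from 224 and 177 CPM against 205 and 165 CPM, which did overlap. Levels of NHP2 and NOP10 did not overlap between the groups.

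Among the abundant nucleolar proteins the median was -0.31, and NPM1, NCL and NOLC1 did not overlap between the groups. NOLC1, which carries snoRNPs to the nucleolus, was at 493 and 349 CPM with shNC and at 322 and 239 CPM with shIRF2BP2. Its log2 fold change of -0.59 was the second lowest of the 40, but the shNC libraries differed by more than the gap between the groups, and the adjusted p was 0.106. For NOLC1 it was 0.00202 without shNC replicate 2, but 0.178 without shNC replicate 1 and 0.408 without shIRF2BP2 replicate 2, where the log2 fold changes were -0.32 and -0.39. NCL was at 1465 and 1197 CPM against 1171 and 971 CPM, and NPM1 at 940 and 831 CPM against 751 and 620 CPM. Log2 fold changes were -0.31 for NCL (adjusted p = 0.264) and -0.37 for NPM1 (adjusted p = 0.159). DDX21, an RNA helicase that works with RNA polymerase I and the snoRNAs, had the highest value of the 5, at 0.13. It was at 407 and 235 CPM with shNC and at 418 and 285 CPM with shIRF2BP2, and the spread within each group exceeded the difference between them. DDX21 had an adjusted p of 0.799 in all libraries and of 0.0347, with a log2 fold change of 0.58, without shNC replicate 1.

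The small-subunit processome genes were more mixed, with a median of -0.14 and 6 of 8 values below 0. RRP9, a protein of the U3 snoRNP, had the lowest, at -0.49 (adjusted p = 0.11). It was at 51.1 and 44.9 CPM with shNC and at 39.5 and 28.9 CPM with shIRF2BP2, without overlap. The adjusted p of RRP9 was 0.0414 without shNC replicate 2 and 0.0498 without shIRF2BP2 replicate 1, but 0.138 without shNC replicate 1 and 0.491, at a log2 fold change of -0.28, without shIRF2BP2 replicate 2. UTP20, a large scaffold protein, had the highest fold change of all 40 genes, at 0.36 with a 95% interval from -0.24 to 0.96 and an adjusted p of 0.416. Its levels were 134 and 74.8 CPM with shNC and 152 and 115 CPM with shIRF2BP2, which overlapped. The shNC libraries decide this value as well. Without shNC replicate 1 it was 0.84 with an adjusted p of 0.0019, and without shNC replicate 2 it was -0.0057.

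Of the pre-40S factors, LTV1 came closest to the threshold. It was at 82 and 68.3 CPM with shNC and at 56.7 and 46.0 CPM with shIRF2BP2. The groups did not overlap, the log2 fold change was -0.55 ± 0.151 and the adjusted p was 0.056. With libraries left out, the adjusted p of LTV1 was 0.00552 without shNC replicate 2, 0.0552 without shIRF2BP2 replicate 1, 0.0713 without shNC replicate 1 and 0.278 without shIRF2BP2 replicate 2. The other 4 genes of this role overlapped between the groups, and TSR1, a GTPase-like factor, had the highest value at 0.03, with 211 and 162 CPM against 204 and 177 CPM. Exons of TSR1 and SRR share 1146 bases on opposite strands in the annotation. Those of NHP2 and RMND5B share 414, and those of NOP16 share 344 with ARL10 and 177 with HIGD2A, also on opposite strands. Whether strand was used in counting is not given in the sources used here, so reads of these genes may be mixed. On the same strand, LTV1 shares 511 and 132 bases with other protein-coding genes, and NOP2 shares 2550 with another. Use of strand would not separate those reads. Several other genes of the list have annotated exon overlaps too. Their part in the fold changes was not tested.

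BOP1, the PeBoW subunit that links the complex together in 60S assembly, had the lowest fold change of the 40. It was at 154 and 131 CPM in the shNC libraries and at 97.3 and 73.9 CPM in the shIRF2BP2 libraries, well apart. Its log2 fold change was -0.73 ± 0.161 with an adjusted p of 0.028, which rose to 0.143 without shIRF2BP2 replicate 2. Its partner PES1 was at 135 and 113 CPM against 101 and 78.5 CPM, also without overlap, at -0.47 (adjusted p = 0.097), and WDR12 at 88.3 and 74.6 CPM against 75.7 and 64.2 CPM, which overlapped, at -0.22. The nearest libraries of WDR12 were thus about 1 CPM apart. NOP16 and GNL3, the GTPase nucleostemin, did not overlap either, and 8 of the 9 genes in this role had values below 0. RRS1 was the exception at 0.04, from 22.6 and 14.8 CPM against 21.8 and 16.5 CPM.

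The RNA polymerase I genes had a median of 0.00, with 3 of 6 values below 0 and the groups overlapping for all 6. POLR1C, a subunit shared with RNA polymerase III, was lowest at -0.15, with 41.4 and 36.5 CPM against 36.8 and 33.2 CPM. POLR1A, the largest catalytic subunit, was highest at 0.26 with a 95% interval from -0.21 to 0.73. It stood at 160 and 106 CPM with shNC and at 178 and 142 CPM with shIRF2BP2, so that shNC replicate 1 lay between the knockdown libraries. Without shNC replicate 1 the value was 0.59 with an adjusted p of 0.0134, and without shNC replicate 2 it was -0.0087. Whether the RNA polymerase I genes differed from the other roles was not tested. Over 10 further polymerase I genes outside the 40 the median was -0.17.

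**Figure D3:**
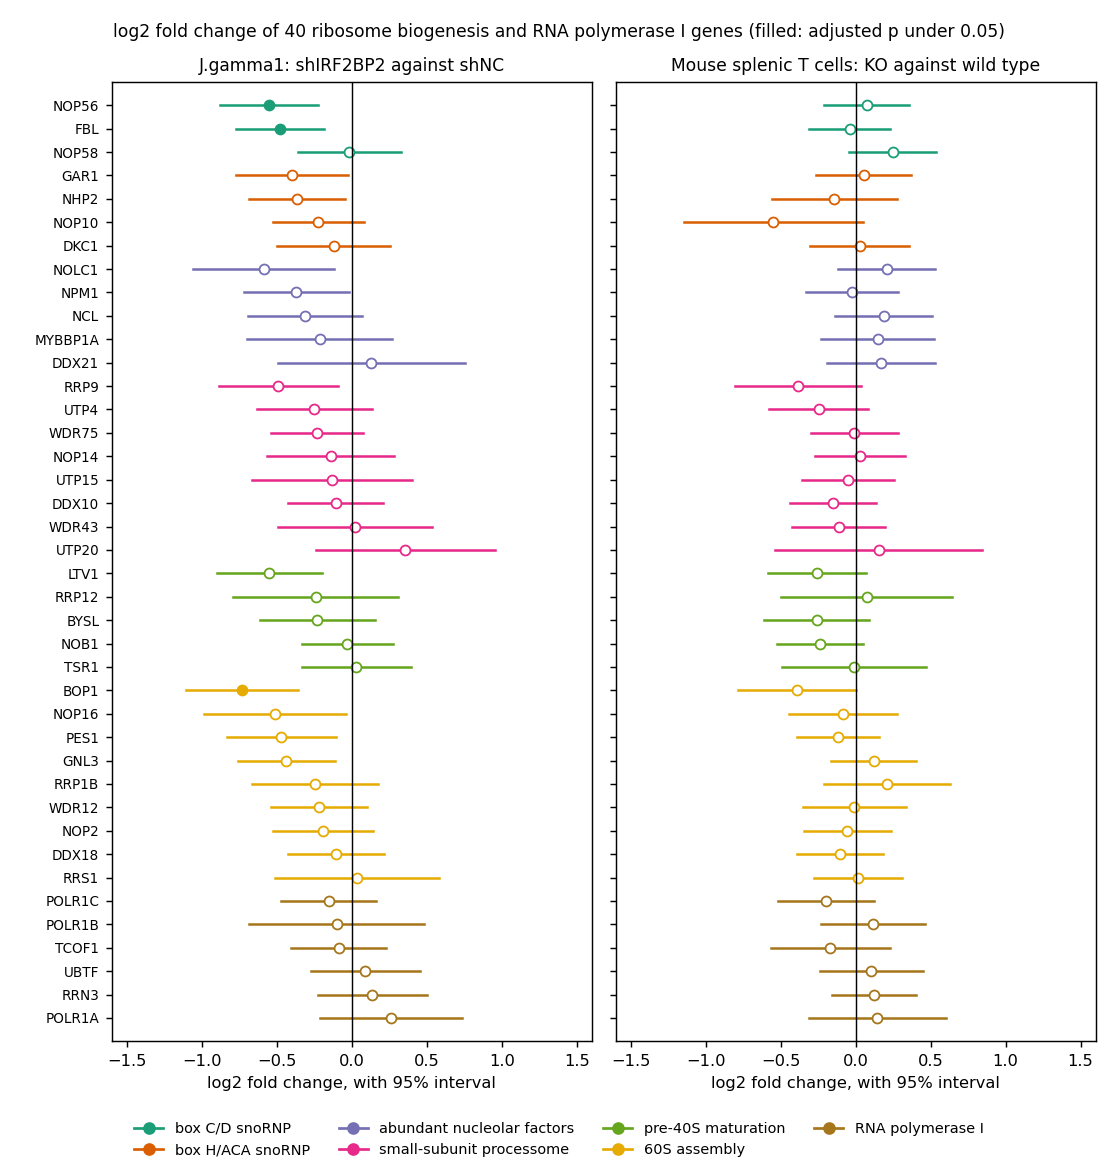
The log2 fold change of each of the 40 genes with its 95% interval (x axis) in J.gamma1 cells (left) and mouse T cells (right), grouped and coloured by role and ordered by the J.gamma1 value. Filled points are the 3 genes with an adjusted p under 0.05, NOP56, FBL and BOP1 in J.gamma1 cells, and no point is filled in the mouse.

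Transcript length moved with these values. Across the 40 genes the log2 fold change correlated with log2 transcript length with a Spearman's rho of 0.51 (Pearson's r of 0.53), against 0.20 over all genes. The difference between the 2 shNC libraries, in which IRF2BP2 expression was alike, correlated with length too, with a rho of -0.61 over the 40 genes and -0.29 over all genes. These points share their libraries, so this is a description and its part in the result was not tested. Of the 20 genes with the shorter transcripts, 19 had values below 0 and 13 did not overlap, with a median of -0.37. Of the 20 with the longer ones, 13 had values below 0 and 2 did not overlap, with a median of -0.10. Over all genes tested, 49.4% had values below 0 and 28.7% were lower without overlap. These shares of all genes were not split by length. The 3 genes with an adjusted p under 0.05 were all in the shorter set. The 6 RNA polymerase I genes had the longest transcripts of the 7 roles, with a median of 4911 bases, against 1913 for box C/D and 898 for box H/ACA.

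Removal of each library's trend on transcript length, an alternative added after the data were seen, left the median of the 40 genes at -0.19. With it, BOP1 alone was called, FBL and NOP56 had adjusted p values of 0.0676 and 0.067, and POLR1A went from 0.26 to -0.03. The median below 0 was thus kept, whereas the positive value of POLR1A was not.

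**Figure D4:**
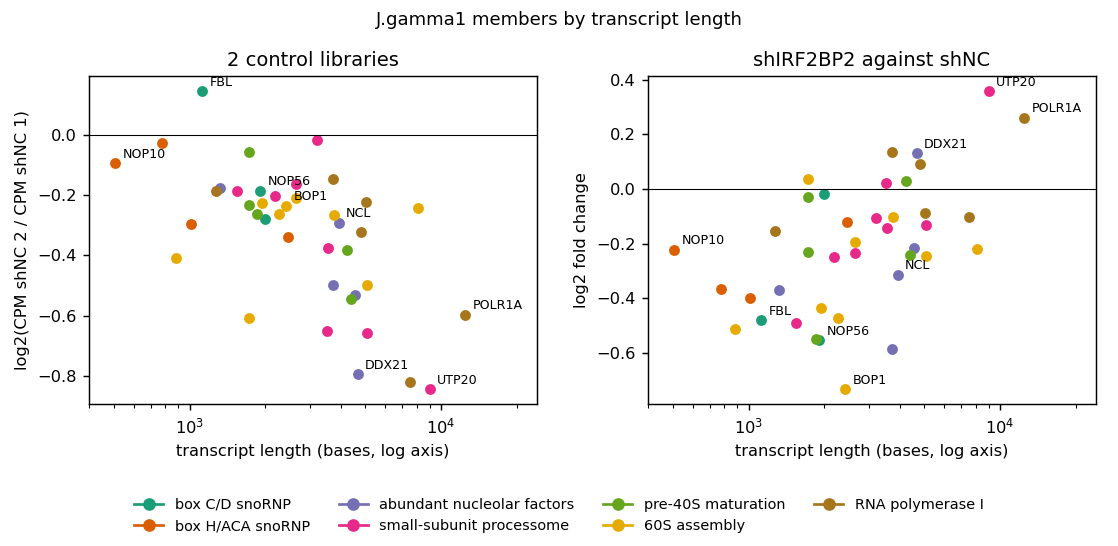
Transcript length of the 40 genes in bases (x axis, log scale) against the log2 ratio of the 2 shNC libraries (left) and the log2 fold change of shIRF2BP2 against shNC (right), coloured by role. UTP20, POLR1A and DDX21 have long transcripts, are lower in shNC replicate 2 than in shNC replicate 1, as are 39 of the 40 genes, and have fold changes above 0. Of the 20 genes with the longer transcripts, however, 13 have fold changes below 0, WDR12 and POLR1B among them.

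Markers of growth moved with the group in J.gamma1 cells. Of 11 proliferation genes, 10 had values below 0 and 3 were called lower. Their summed level was 5581 to 5722 CPM with shNC and 4428 to 4643 CPM with shIRF2BP2, with a median log2 fold change of -0.39. Its part in the values of the 40 genes was not tested. In bulk libraries, fewer cells of a kind and less RNA per cell cannot be told apart.

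A longer list of 117 further genes of ribosome production was written by hand. They were not picked for how they moved, though earlier results of these data were known. Their values were similar, but they come from the same libraries and are no independent check. The median log2 fold change was -0.17 and 94 of the 117 values were below 0. By the same threshold edgeR called 4 lower, against 5.01% of all genes, and 0 higher, against 5.46%. At an unadjusted p under 0.05, 22 were lower, against 13.4%, and 0 higher, against 14.3%. DESeq2 called 6 lower, against 3.38% of the genes in its fit, and 0 higher, against 3.68%. EXOSC5, a subunit of the RNA exosome that trims precursor rRNA, was at 29.9 and 33.0 CPM with shNC and at 22.4 and 15.8 CPM with shIRF2BP2 (log2 fold change -0.72, adjusted p = 0.048). IMP4, a U3 snoRNP protein, had a value of -0.63 (adjusted p = 0.047). EXOSC9, another exosome subunit, was at 167 and 176 CPM against 114 and 116 CPM, the tightest replicates of the 4, at -0.58 ± 0.115 (adjusted p = 0.020). RUVBL1, an ATPase that helps to build snoRNPs, was the last of the 4, at -0.52 (adjusted p = 0.046). Exosome genes were the lowest of the 5 roles in this list, with a median of -0.31 over 10 genes. These calls also depended on which library was left out, while the share of all genes called moved as well, as given above.

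In mouse T cells that lacked Irf2bp2, the 40 genes stayed close to their wild type levels and none passed the test. The median log2 fold change was -0.01, against -0.02 over all genes, with 22 of 40 values below 0. edgeR called 0 of the 40 lower (0.15% of all genes were) and 0 higher (2.68%), and 0 had an unadjusted p under 0.05 in either direction, against 6.01% and 10.2% of all genes. DESeq2 called 0 as well, against 0.96% of the genes in its fit lower and 4.27% higher. Sizes were bounded by the intervals. The 95% interval lay within 1 of 0 on the log2 scale for 39 of the 40 genes and within 0.5 for 21. The summed level of the 40 was 5059, 4888 and 5285 CPM in the wild type libraries and 5286 and 5071 CPM in the knockout libraries, which overlapped.

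Bop1 had the lowest p of the 40 in the mouse. It was at 69.9, 97.6 and 85.1 CPM in wild type and at 63.4 and 65.1 CPM in knockout libraries, without overlap. The log2 fold change was -0.39 with a 95% interval from -0.78 to 0.0038 and an adjusted p of 0.314 by edgeR's quasi-likelihood test. A fall as large as that of BOP1 in J.gamma1 cells (-0.73) therefore lay inside the interval. Nop10 had the lowest value, at -0.55 (adjusted p = 0.35), from 62.6, 82.5 and 44.7 CPM against 44.3 and 42.4 CPM. Wild type replicate 3 was at the level of the knockout there, and wild type replicate 2 was far above both.

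Nop58 had the highest value, at 0.25 (adjusted p = 0.389), with 104, 99.3 and 113 CPM in wild type and 127 and 123 CPM in knockout libraries, without overlap. Fbl was at 145, 148 and 144 CPM against 140 and 143 CPM. Its libraries were the tightest of the box C/D genes, and its log2 fold change was -0.04 with an interval from -0.31 to 0.23. The value of FBL in J.gamma1 cells, -0.48, lies outside that interval. However, the interval of FBL there, from -0.77 to -0.19, overlaps the mouse interval. The difference between the species was not tested. Nop56 was at 210, 204 and 215 CPM against 210 and 231 CPM, at 0.07 with an interval from -0.21 to 0.36, so that the groups overlapped.

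**Figure D5:**
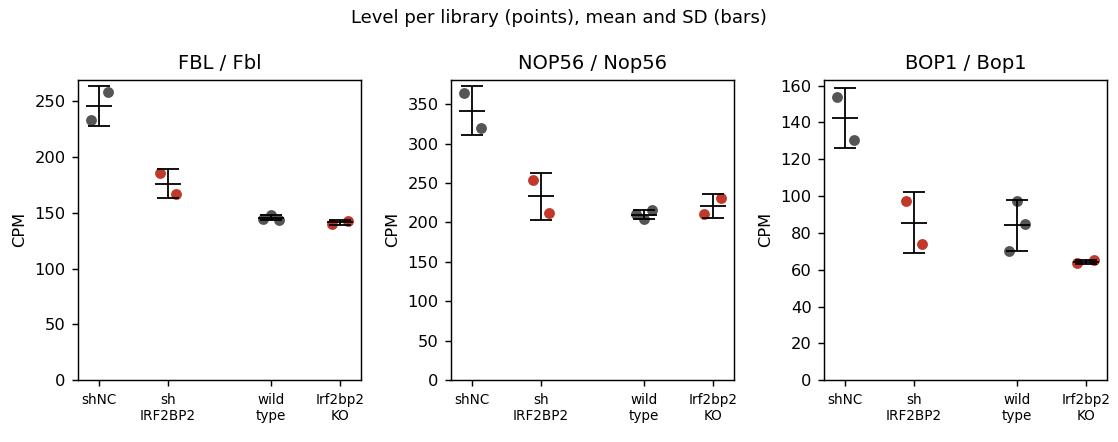
CPM of FBL, NOP56 and BOP1 and of their mouse counterparts in each library (points), with the mean and SD of each group (bars), on axes from 0. The shIRF2BP2 points lie below the shNC points for all 3 genes, whereas the mouse groups lie together for Fbl and Nop56 and the knockout points lie just under the wild type points for Bop1.

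By role, the mouse medians were 0.07 for box C/D, -0.06 for box H/ACA, 0.17 for the abundant nucleolar proteins, -0.08 for the small-subunit processome, -0.24 for pre-40S maturation, -0.05 for 60S assembly and 0.11 for RNA polymerase I. Knockout levels lay below all wild type levels for 11 genes, against 17.8% of all genes, and above them for 4, against 18.2%. The 11 were Fbl, Nop10, Polr1c, Nob1, Bop1, Pes1, Rrp9, Utp4, Ddx10, Ltv1 and Bysl, and the 4 were Ncl, Nop58, Nolc1 and Rrn3. Within each role the lowest and highest values not yet given were as follows. Gar1 was highest of box H/ACA at 0.05. Npm1 was lowest of the nucleolar proteins at -0.02, with 775, 778 and 697 CPM against 746 and 728 CPM, and Nolc1 highest at 0.21.

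Rrp9 was lowest of the processome at -0.38 (adjusted p = 0.357), with 42.1, 59.8 and 55.3 CPM in wild type and 40.6 and 39.8 CPM in knockout libraries. Utp20 was highest of that role at 0.15, although wild type replicate 2, at 53.9 CPM, lay far below the other 2 at 90.5 and 110 CPM. Bysl and Rrp12 bounded the pre-40S genes at -0.26 and 0.07. Rrp1b was highest of the 60S genes at 0.21, and Polr1c and Polr1a bounded the polymerase genes at -0.20 and 0.14. None of these had an adjusted p under 0.05.

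Length moved with the mouse values as well. Over the 40 genes, log2 fold change and log2 transcript length correlated with a Spearman's rho of 0.49, against 0.21 over all genes. The difference of wild type replicate 2 from wild type replicate 1, both controls, gave -0.53, and that of replicate 3 from replicate 2 gave 0.66. Its part in the result was not tested. Of 115 further ribosome production genes measured in the mouse, 76 had values below 0, with a median of -0.06. edgeR called 0 of them in either direction, with 0 lower and 1 higher at an unadjusted p under 0.05, and DESeq2 called 0.

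Markers of T cells, erythroid cells and proliferation moved with the genotype in the mouse libraries. Summed levels of the B cell, plasma cell and myeloid markers overlapped between the genotypes. The summed level of 11 T cell markers was 4834 to 5360 CPM in wild type and 3628 to 3875 CPM in knockout libraries, with 10 of 11 lower and 1 called. All 11 erythroid markers measured, of 12 listed, were higher in the knockout, 6 of them called, with a summed level of 4520 to 6332 CPM against 596 to 2264 CPM. The 5 B cell markers summed to 25.5 to 216 CPM in wild type and 24.2 to 77.0 CPM in knockout libraries. Plasma cell markers summed to 321 to 1053 CPM against 1032 to 1356 CPM over 4 genes, and myeloid markers to 29.5 to 317 CPM against 53.5 to 96.9 CPM over 5 genes. None of these lists had a marker at 0 in all libraries. All 11 proliferation genes were higher, 7 of them called, at 1858 to 2054 CPM against 753 to 985 CPM. The part of these cells in the values of the 40 genes was not tested.

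Set side by side, 20 of the 40 genes had values below 0 in both species, 6 above 0 in both, 12 below 0 in J.gamma1 cells and above 0 in the mouse, and 2 the reverse. The log2 fold changes correlated across genes with a Pearson's r of 0.33 and a Spearman's rho of 0.27 (n = 40), as a description. Both relate to transcript length in the same direction, as given above. Levels lay below the control levels without overlap in both tables for 6 of the 40 genes, FBL, NOP10, BOP1, PES1, RRP9 and LTV1, against 7.07% of the 9903 genes tested in both tables and matched by symbol. For 2 of them the nearest mouse libraries almost met. Fbl was at 143.1 CPM in knockout replicate 2 and 143.9 CPM in wild type replicate 3, and Nop10 at 44.3 CPM in knockout replicate 1 and 44.7 CPM in wild type replicate 3. NCL and NOLC1 were without overlap in both but in opposite directions, lower in J.gamma1 cells and higher in the mouse. That was 2 of 40, against 5.88% of the matched genes, a share near the background.

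Fold changes were also listed by promoter word, as a description. In J.gamma1 cells the median log2 fold change was -0.23 over the 18 genes with CACGTG and -0.13 over the 22 without it. It was -0.23 over the 20 genes with CCGGAA and -0.18 over the 20 without it. Over the 4 genes with TGTGGT it was -0.09, and over the 36 without it -0.22. In the mouse the medians were -0.05 with and 0.03 without CACGTG, -0.10 with and 0.05 without CCGGAA, and -0.12 with and -0.01 without TGTGGT, over 34 genes. BOP1 and NOP56, the 2 genes called, hold CCGGAA and no CACGTG, while UTP20, with the highest value, holds CACGTG. Several of these genes also carry snoRNA genes within their bounds. In human these are GNL3 with 6, NOP56 with 5, NOP58 with 4, NCL and WDR43 with 3 each, and DKC1 and TSR1 with 2 each, 25 snoRNA genes in 7 hosts. Some of the snoRNA genes share annotated exon bases with the host on the same strand, as SNORA36A does with DKC1 over 132 bases. Their part in the counts was not tested. The median log2 fold change of these 7 hosts was -0.12 in J.gamma1 cells and that of the 7 mouse hosts 0.07.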

How the data were processed

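The authors aligned paired-end reads of 150 bases with HISAT2 2.2.0 to hg38 (human) or mm10 (mouse) and estimated abundance with StringTie, per the labels and the study's methods. The deposited counts are whole numbers for each library and Ensembl gene, neither normalized nor pooled. How coverage became counts, the annotation release and the use of strand are not given in the sources used here. Libraries of one group differed by more than sampling noise, so each was 1 replicate.

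Rows named in GENCODE 44 or M21 were kept (56105 human, 42462 mouse), filtered with filterByExpr and, after TMM scaling, tested with edgeR 4.0.16 (quasi-likelihood, group as sole term, Benjamini-Hochberg over all genes tested) in R 4.3.3, separately for each table. SEs and 95% intervals come from that fit. Scripts were tested on simulated data. Lengths are those of 1 principal transcript per gene, and 4 mouse genes were matched by older symbols. Members, roles, lists and tests were chosen with earlier results of these data known. Values are given for every gene with an adjusted p under 0.05, the lowest and highest fold change in each role, the 3 highest and 3 lowest control levels, and called genes of the longer list with the largest changes. Other genes named were chosen after their values were seen. Alternatives were upper-quartile and RLE scaling, DESeq2 1.42.0, other filters and fold thresholds, halved counts, all rows, replicate blocks, single libraries left out and, added after the data were seen, transcript length trends (loess, span 0.5) removed.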

Additional observations from a re-analysis of the deposited data

Results flagged for a closer look

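NCL and NOLC1 went opposite ways in the 2 species, with no overlap between the groups in either. The log2 fold change of NCL was -0.31 in J.gamma1 cells and that of Ncl 0.19 in mouse T cells. The log2 fold change of NOLC1 was -0.59 in J.gamma1 cells and that of Nolc1 0.21 in mouse T cells. Such an opposite pattern without overlap was seen for 5.88% of all genes matched between the tables, so 2 of 40 is near the background. None of the 4 values had an adjusted p under 0.05 by edgeR, and the difference between the species was not tested.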

How the results depend on the processing

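The count of the 40 genes called lower in J.gamma1 cells, 2 by edgeR, was 4 with DESeq2 or upper-quartile scaling, 1 with all rows or with either length trend removed, 0 with the loosest filter (1 count in any library) or a fold threshold of 1, and 0 to 9 with single libraries left out. The count called higher was 0 to 3 with libraries left out. Of the further pathway genes, 4 were called lower in J.gamma1 cells, against 7 with upper-quartile scaling, 1 with the loosest filter, all rows or either length trend removed, 0 with a fold threshold of 1 and 0 to 12 with libraries left out, and 0 to 1 were then called higher. Of all genes tested in J.gamma1 cells, 5.01% were called lower in the main fit. That share was 3.38% with DESeq2, 5.98% with upper-quartile scaling, 4.42% with all rows and 1.46% with the loosest filter. With the length trend removed it was 5.67% robustly and 5.85% by least squares. The mouse median was -0.072 to -0.0092 with libraries left out. It was -0.19 with the length trend removed by least squares, where that of all mouse genes was -0.19 too. The cause was not tested.

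Fold changes near 0 changed sign. In J.gamma1 cells TSR1 was -0.022 and RRS1 -0.014 with upper-quartile scaling, and TSR1 was -0.00063 with the loosest filter. With the length trend removed robustly and by least squares, TSR1 was -0.020 and -0.012, NOP58 0.055 and 0.034, and POLR1A -0.027 and -0.0042. In the mouse, Fbl was 0.0050 and Npm1 0.022 with 10 or more counts in every library. With the trend removed robustly, Fbl was 0.069, Npm1 0.064, Utp20 -0.035 and Polr1a -0.085, and by least squares Utp20 was -0.21, Rrp12 -0.15, Rrp1b -0.042 and Polr1a -0.25. With single libraries left out, the log2 fold change in J.gamma1 cells ranged from -0.17 to 0.13 for NOP58, -0.31 to 0.054 for DKC1, -0.21 to 0.58 for DDX21, -0.0057 to 0.84 for UTP20, -0.15 to 0.23 for TSR1, -0.24 to 0.37 for RRS1 and -0.0087 to 0.59 for POLR1A. In the mouse it ranged from -0.080 to 0.020 for Npm1, -0.069 to 0.38 for Utp20, -0.11 to 0.27 for Rrp12 and -0.016 to 0.29 for Polr1a.

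Replicate numbers are shared between the J.gamma1 groups, but whether the libraries were paired cannot be told from 2 pairs. The correlation of same-numbered deviations over all genes was 0.225. With 2 libraries a group the deviations mirror each other, so the value for unlike numbers is -0.225 by construction. With the replicate block, 6 of the 40 genes were called lower (BOP1, RRP9, NOP16, NOLC1, NOP56 and LTV1), against 7.42% of all genes with the block and 5.01% without it, and 1 further pathway gene higher. At the adjusted p alone, 12 were lower, against 10.5% of all genes, and UTP20 was higher with a log2 fold change of 0.40 (edgeR adjusted p = 0.0422), against 11.9%. In the mouse, same-numbered correlations of 0.151 and -0.16 differ in sign and do not settle whether libraries were paired. With the block 0 of the 40 mouse genes were called by edgeR in either direction, against 0.345% of all genes lower and 2.89% higher.

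With 2 or 3 libraries a group, few residual degrees of freedom were left. Depth is not the limit at 460 counts or more per gene. A lone library left in a group is assumed to vary like the other group.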
